A study of Schizosaccharomyces pombe with 3 samples.

Results

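The members are 4385 introns of *Schizosaccharomyces pombe*, compared between cells after 60 min of Prp4 inhibition and untreated cells. They are the junctions of the deposited table that held more than 10 reads in both libraries, and they make up 81.7% of its 5368 junctions. They lie in 2200 genes, of which 1153 contributed more than 1 intron. Both libraries came from the *prp4-as2* strain, the Prp4 kinase conditional mutant, grown in EMM medium. The 60 min library came from cells exposed for 60 min to 10 μM 1NM-PP1, an ATP analogue that blocks the kinase made from this allele. The untreated library (0 min) carried the same allele and received no analogue. A further library was taken at 30 min and is used here only beside the others. There was 1 library per condition, no strain with wild-type Prp4 is among the samples, and an effect of the analogue apart from Prp4 cannot be told apart. Every difference therefore compares 2 libraries. No p-value was computed, and all intervals are exact Clopper-Pearson 95% intervals that cover counting error only.

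Introns are removed by the spliceosome, in which snRNA U1 first pairs with the 5’ splice site (5’ SS) and the U2 snRNP recognizes the branch sequence. U1 is later displaced, and U6 takes over the 5’ SS before the first catalytic step. Prp4 is a kinase that phosphorylates the U5 snRNP protein Prp1 and the SR protein Srp2 and acts while the spliceosome is being activated. An intron that is not removed stays in the RNA, where it usually brings a stop codon into the reading frame.

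At each 5’ exon junction the table gives split reads, which join exon to exon (spliced RNA), and unsplit reads, which run on into the intron (unspliced RNA). The unspliced share is the percentage of unsplit reads among both. The Relative Splicing Efficiency Index (RSEI) takes log2 of the split-to-unsplit ratio after 1 read is added to both counts, so that a negative value means more unspliced than spliced RNA. The 60 min library held 743457 junction reads and the untreated library 910440, and the median kept junction was covered by 70 and by 81 of them. Of the members, 4336 matched an annotated intron of at least 20 nt (RefSeq, ASM294v3), 4238 of them between coding exons, 81 in 5’ UTRs and 15 in 3’ UTRs. The other 49 matched none. At such a junction unsplit reads need not mean unspliced RNA, and 34 of the 49 were negative at 60 min, against 32 in untreated cells.

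The best-read introns show both outcomes side by side. Among the introns with a negative RSEI at 60 min, the 5 with the most reads belonged to *tbp1*, *rpl39*, *sds23*, *tma20* (listed as SPBC31F10.12) and *rps502*, and the 3 that lie between coding exons are printed below. Each line starts with the last 3 bases of the upstream exon. Capitals mark the first 6 bases of the intron, the match to the branch motif nearest the 3’ end, and the last 3 bases. A match is not shown to be the branch sequence in use, and in *rps502*-I a CTAAC lies directly before the marked stretch. The sequences are read from ASM294v3, 5’ to 3’, as DNA.

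*tbp1*-I: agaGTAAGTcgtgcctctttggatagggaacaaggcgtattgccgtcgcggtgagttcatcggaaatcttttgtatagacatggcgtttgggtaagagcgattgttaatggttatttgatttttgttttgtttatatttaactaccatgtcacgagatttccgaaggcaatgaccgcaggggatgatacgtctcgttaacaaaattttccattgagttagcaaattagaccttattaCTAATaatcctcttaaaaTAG
*tma20*-II: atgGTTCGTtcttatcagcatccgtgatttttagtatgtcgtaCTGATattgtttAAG
*rps502*-I: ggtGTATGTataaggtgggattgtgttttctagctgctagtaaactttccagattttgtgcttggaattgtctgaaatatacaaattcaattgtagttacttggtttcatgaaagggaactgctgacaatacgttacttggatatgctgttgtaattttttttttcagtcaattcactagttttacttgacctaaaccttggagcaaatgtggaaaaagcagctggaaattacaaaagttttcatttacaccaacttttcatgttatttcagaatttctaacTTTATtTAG

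*tbp1*-I (chromosome I, 4415750 to 4416004, + strand) lies in the gene of the TATA-binding protein, *tma20*-II (chromosome II, 3773526 to 3773580, + strand) in that of the RNA-binding protein Tma20, and *rps502*-I (chromosome I, 3496989 to 3497276, - strand) in a gene of the small ribosomal subunit. *tbp1*-I had 817 unsplit and 624 split reads at 60 min, against 238 unsplit and 2054 split reads in untreated cells. *tma20*-II had 257 unsplit and 175 split reads at 60 min, against 114 and 1604 in untreated cells. *rps502*-I had 372 unsplit and 344 split reads at 60 min, against 42 and 1030 in untreated cells. All 3 were mostly spliced before the analogue. At 60 min unsplit reads prevailed beyond counting error in *tbp1*-I (54.1 to 59.3) and *tma20*-II (54.7 to 64.2) by the interval of their percentage, whereas that of *rps502*-I (48.2 to 55.7) held 50%. The 3 introns had an RSEI at 60 min of -0.39, -0.55 and -0.11 in that order, against 3.10, 3.80 and 4.58 in untreated cells. The introns of *rpl39* (196 split and 1357 unsplit reads at 60 min, against 1092 and 554 in untreated cells) and of *sds23* (147 and 880 reads, against 1207 and 550) lie in UTRs and had the lowest RSEI of the 5 at 60 min, -2.79 and -2.57, against 0.98 and 1.13 in untreated cells. Their changes, -3.76 and -3.71, were smaller than those of *tma20*-II (-4.35) and *rps502*-I (-4.70).

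The 5 best-read introns whose RSEI at 60 min stayed within 0.5 of the untreated value are shown in the same way. They belong to 3 ribosomal protein genes, to *sbp1* (a Ran GTPase-binding protein) and to *tef5* (translation elongation factor EF-1 beta).

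*rpl14*-I: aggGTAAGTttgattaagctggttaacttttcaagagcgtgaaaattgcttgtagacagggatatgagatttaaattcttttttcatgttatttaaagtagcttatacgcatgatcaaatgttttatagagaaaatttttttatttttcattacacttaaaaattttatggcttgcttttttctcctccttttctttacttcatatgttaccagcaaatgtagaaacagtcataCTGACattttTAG
*rps1901*-I: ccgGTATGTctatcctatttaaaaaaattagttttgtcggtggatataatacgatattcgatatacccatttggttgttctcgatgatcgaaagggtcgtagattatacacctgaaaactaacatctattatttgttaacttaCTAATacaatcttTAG
*sbp1*-I: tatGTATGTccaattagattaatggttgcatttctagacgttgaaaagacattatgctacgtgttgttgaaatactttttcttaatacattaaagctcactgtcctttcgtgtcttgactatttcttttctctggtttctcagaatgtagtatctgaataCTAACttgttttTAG
*tef5*-I: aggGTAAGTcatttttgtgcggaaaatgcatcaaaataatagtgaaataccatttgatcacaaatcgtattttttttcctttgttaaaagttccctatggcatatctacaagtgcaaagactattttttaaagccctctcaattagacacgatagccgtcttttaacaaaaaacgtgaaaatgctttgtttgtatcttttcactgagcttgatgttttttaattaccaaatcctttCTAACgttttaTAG
*rps1601*-I: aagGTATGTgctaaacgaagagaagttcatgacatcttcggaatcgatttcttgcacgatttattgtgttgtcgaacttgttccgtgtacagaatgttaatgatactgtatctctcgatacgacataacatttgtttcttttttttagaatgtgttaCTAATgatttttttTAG

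These introns lie at chromosome I, 2795046 to 2795289 (*rpl14*, + strand), chromosome II, 3818374 to 3818529 (*rps1901*, + strand), chromosome II, 296534 to 296705 (*sbp1*, - strand), chromosome III, 1732854 to 1733100 (*tef5*, + strand) and chromosome II, 1794322 to 1794492 (*rps1601*, + strand). *rpl14*-I had 25558 split and 613 unsplit reads at 60 min, against 26408 and 615 in untreated cells. *tef5*-I had 5042 split and 9 unsplit reads at 60 min, against 4724 and 6 in untreated cells. *sbp1*-I kept the same RSEI of 2.79 in both libraries, with 5039 split and 726 unsplit reads at 60 min and 3646 and 525 in untreated cells. An RSEI that did not move thus occurred both in introns with almost no unsplit reads and in one that already held a sizeable unspliced share. Of the 5 introns, 4 have 7 bases around the 5’ SS that can pair with U1, and *sbp1*-I has 6. Here and below, pairs are counted as matches to CAG/GUAAGU, and wobble pairs of other letters are left out. The 3 introns printed before them have 6 (*tbp1*-I) or 5.

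Over the whole library, unsplit reads made up 22.8% (22.7 to 22.9) of all junction reads at 60 min, against 6.92% (6.86 to 6.97) in untreated cells. The median intron had an RSEI of 1.44 at 60 min (quartiles -0.15 and 2.79), against 3.51 in untreated cells (2.54 and 4.46). Its unspliced share was 26% at 60 min, against 6.78%. RSEI was lower at 60 min in 4085 introns (93.2%), higher in 289 and equal in 11, and the median change was -2.08. It was lower by at least 1 in 3364 introns (76.7% of those kept), by at least 2 in 2292 and by at least 4 in 532. It was higher by at least 1 in 61. The exact intervals of the unspliced share lay apart, with the higher share at 60 min, in 2206 introns (50.3%). In no intron did they lie apart with the higher share in untreated cells, and the share itself was lower at 60 min in 283.

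**Figure D1:**
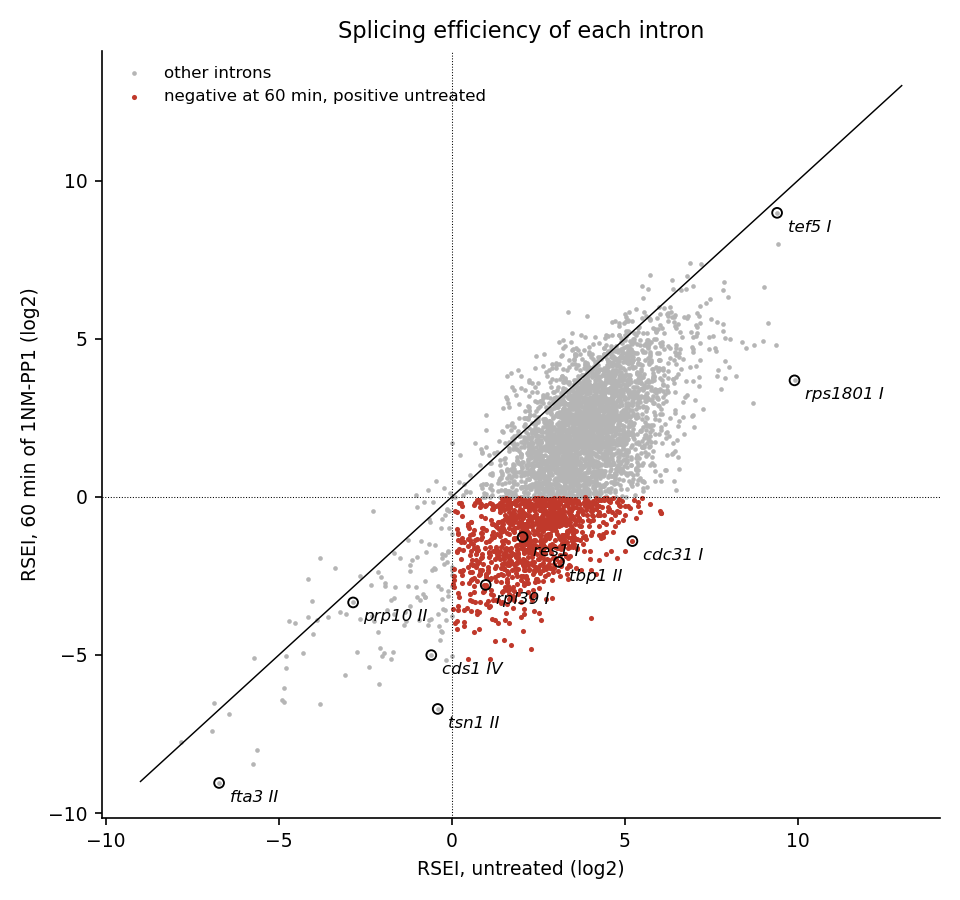
RSEI (log2) of 4385 introns at 60 min of 1NM-PP1 (vertical) and in untreated cells (horizontal), 1 point per intron, with the line of equal values and dotted lines at 0. Red points are the 1038 introns that were negative at 60 min and positive in untreated cells; circled introns are named in the text, and most points lie below the line.

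The introns did not move to a common level at 60 min. Of the 4385 introns, 955 were under 10% unspliced at 60 min, against 2899 in untreated cells. Shares of 10 to 25% were found in 1175 introns, against 1060, and shares of 25 to 50% in 1047, against 294. Between 50 and 75% lay 706 introns at 60 min, against 76 in untreated cells, and 502 were 75% or more unspliced, against 56. The 60 min library therefore held introns in every range of the unspliced share, whereas 66.1% of introns were under 10% in untreated cells.

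**Figure D2:**
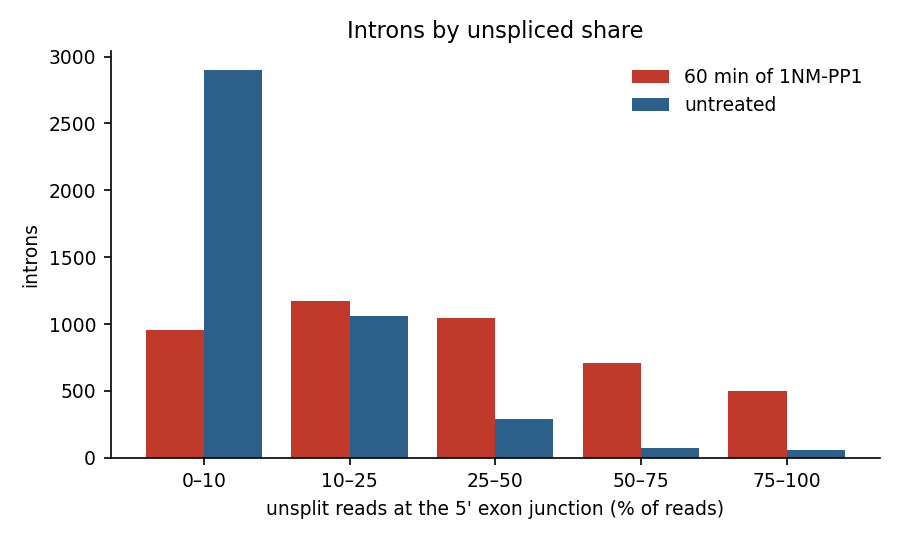
Number of introns (vertical) in 5 ranges of the unspliced share (horizontal, % of reads at the 5’ exon junction), for the 60 min library (red) and the untreated library (blue). At 60 min 502 introns were 75% or more unspliced, against 56 in untreated cells, and 955 were under 10%, against 2899.

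RSEI was negative in 1163 introns at 60 min (26.5%, 25.2 to 27.9), against 123 (2.81%) in untreated cells. In 717 of the 1163 the interval of the unspliced share lay wholly above 50%, and in 446 it held 50%, as it did in 573 introns with a positive RSEI. Of the 4253 introns that were positive in untreated cells, 1038 (24.4%), in 772 genes, were negative at 60 min and 3171 were still positive. The 1038 introns had a median unspliced share of 69.2% at 60 min, against 15.1% in untreated cells. Relative to library totals, their split reads were at 0.391 of the untreated level in the median intron and their unsplit reads 4.59-fold higher, while both kinds together were at 1.08. The 3171 introns that remained positive also gained unspliced RNA, with a median share of 17.0% at 60 min, against 4.94%. Their unsplit reads were 2.84-fold higher and their split reads at 0.940 of the untreated level. The sets are defined by the sign at 60 min, which the split and unsplit reads of that library decide, so the contrast between their folds is built in. The folds of split and of unsplit reads include 1 added read.

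The defect at 60 min was smaller than at 30 min. From 0 over 30 to 60 min the median RSEI ran 3.51, 0.56 and 1.44, and the number of negative introns 123, 1735 and 1163. Among 4301 introns with more than 10 reads at 30 min as well, RSEI was higher at 60 min than at 30 min in 3668 (85.3%), by a median of 0.76 over all of them. The unspliced share was lower at 60 min than at 30 min with intervals apart in 734 introns, and in 534 of these it was still above the untreated share, with intervals apart again. Of the introns that were negative at 30 min, 1102 were also negative at 60 min and 558 were positive. Only 28 were positive at 30 min and negative at 60 min.

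The largest falls of RSEI among the 2505 introns with at least 50 reads in both libraries brought mostly spliced introns below 0 in 7 of 10 cases. The second intron of SPCC1620.06c, which encodes a ribose-phosphate pyrophosphokinase, had 34 split and 191 unsplit reads at 60 min, against 594 and 32 in untreated cells, a change of -6.63. The single intron kept in *cdc31*, the gene of the spindle pole body centrin, had 60 split and 160 unsplit reads at 60 min, against 557 and 14. Its unspliced share was 72.7% (66.3 to 78.5) at 60 min, against 2.45% of 571 reads in untreated cells. The second intron of *tsn1*, which encodes translin, was poorly spliced already, with 3 split and 417 unsplit reads at 60 min and 258 and 343 in untreated cells. There the fall of 6.30 came almost wholly from split reads. In *rps1801*-I, from a gene of the small ribosomal subunit, the change of -6.22 rests on an untreated count of 0 unsplit reads, with 34 unsplit and 448 split reads at 60 min and 956 split reads in untreated cells. This intron stayed mostly spliced, at 3.68. The remaining 6 of the 10 largest falls (-6.34 to -5.99) were in SPAC2F3.18c (a ribonuclease kappa-like protein), *bet4* (a subunit of the enzyme that prenylates Rab GTPases), *rhn1* (transcription termination), *ppm1* (a leucine carboxyl methyltransferase), *gir2* and *opy1*, and *rhn1*-I alone among these 6 kept a positive RSEI (0.23).

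At the other end, the 10 introns with the smallest falls had a higher RSEI at 60 min, by 1.17 to 1.82, and the difference rested on few unsplit reads. The third intron of *elc1* (elongin C) had 105 split and 1 unsplit read at 60 min, against 74 and 4 in untreated cells. *prp19*-I, in the gene of a ubiquitin ligase that works within the spliceosome, had 91 split and 4 unsplit reads at 60 min, against 95 and 12. The fifth intron of *rpb1* (the large subunit of RNA polymerase II) had 66 split and 1 unsplit read, against 56 and 3. None of the 10 had intervals that lay apart.

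Among introns with at least 50 reads in both libraries, the 5 lowest values of RSEI at 60 min were those of junctions without any split read in either library, namely *fta3*-II (-9.05), SPAC29A4.02c-II (-8.44), *rrp36*-II (listed as SPAC823.04, -7.76), *pfd1*-IV (listed as SPBC1D7.01, -7.40) and *cpc2*-III (-6.86). None of them matched an annotated intron of at least 20 nt. *fta3*-II had 528 unsplit reads at 60 min, against 105 in untreated cells.

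Introns of the same gene did not always end up on the same side. Of the 1153 genes with more than 1 kept intron, 464 (40.2%) had at least 1 negative and at least 1 other intron at 60 min, against 67 in untreated cells. This count is to be read beside the 26.5% of all kept introns that were negative. Whether introns of 1 gene differ more or less often than introns of different genes was not tested. In 96 genes all kept introns were negative at 60 min and in 593 none was. The RSEI of the introns of a gene spanned a median of 2.44 at 60 min, against 1.68 in untreated cells. *cds1*, the gene of the replication checkpoint kinase, had 7 kept introns. It was among the 5 genes with the widest span over introns with at least 50 reads in both libraries. Its introns II, III, IV and VI, on the - strand of chromosome III, are printed here because they span the range from spliced to unspliced, with capitals as before.

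*cds1*-II: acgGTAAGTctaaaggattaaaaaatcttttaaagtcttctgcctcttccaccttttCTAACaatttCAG
*cds1*-III: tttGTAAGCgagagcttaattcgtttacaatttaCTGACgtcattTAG
*cds1*-IV: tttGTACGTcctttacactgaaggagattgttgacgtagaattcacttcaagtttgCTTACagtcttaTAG
*cds1*-VI: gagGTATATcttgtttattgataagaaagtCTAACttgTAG

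*cds1*-II (740766 to 740832) had 65 split and 2 unsplit reads at 60 min, against 64 and 2 in untreated cells, and did not move. *cds1*-III (740689 to 740733) had 34 split and 53 unsplit reads at 60 min, against 26 and 8. Introns IV (740536 to 740603) and VI (739963 to 740000) were spliced in only part of the RNA before the analogue and hardly at all after it. Intron IV had 8 split and 288 unsplit reads at 60 min, against 44 and 67, and intron VI had 23 and 277, against 47 and 46. Introns I, V and VII were in between, with an unspliced share of 47.9, 38.2 and 32.7% at 60 min, against 5.30, 6.50 and 8.97% in untreated cells. The letters around the 5’ SS of intron II can form 7 pairs with U1, those of III and IV 5 and those of VI 6. Introns I, V and VII, which can form 7 each, were at intermediate shares.

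A wide span was also found in *ftp105* (a Ubp5-interacting protein), where intron IV had 126 split and 0 unsplit reads at 60 min, against 109 and 0, while intron III had 23 and 91, against 43 and 13. *prp10*, which encodes the U2 snRNP protein SF3B1, had an intron I with 208 split and 3 unsplit reads at 60 min, against 139 and 0. Its intron II was mostly unspliced in both libraries, with 32 split and 333 unsplit reads at 60 min, against 29 and 216. The spans of SPAC29A4.02c and *cpc2* rest on the junctions named above that matched no annotated intron.

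The genes of the study's own experiments covered the whole range. The *res1* intron, in the gene of a subunit of the MBF transcription factor that drives G1/S genes, had 69 split and 168 unsplit reads at 60 min, against 160 and 38 in untreated cells. Its unspliced share was 70.9% (64.7 to 76.6) at 60 min, against 19.2% (13.95 to 25.4). The *ppk8* intron, in a protein kinase gene, had 46 split and 10 unsplit reads, against 48 and 6, and its intervals overlapped. In *rpl29* (large ribosomal subunit) split reads still prevailed, with 1354 split and 763 unsplit at 60 min, against 2339 and 97. Its RSEI nevertheless fell by 3.75, more than that of *res1* (3.32), from an untreated value of 4.58, against 2.05 in *res1*. All 3 introns of *tbp1* were negative at 60 min, with 81.0% (74.98 to 86.0) unspliced in intron II, against 10%. *cdc2*, the gene of the cyclin-dependent kinase that drives the cell cycle, differed between its introns. Intron I, in the 5’ UTR, had 0 split and 16 unsplit reads at 60 min, against 13 and 10, whereas introns II to V stayed at an RSEI of 1.27 to 2.52, against 4.39 to 5.38. In *mrp17* (a mitochondrial ribosomal protein) intron I had 31 split and 82 unsplit reads at 60 min, against 71 and 11. Its intron II had 45 and 12, against 61 and 7. The 5’ SS of *mrp17*-I can form 7 pairs with U1 and that of *mrp17*-II 6. The introns of *res1* and *ppk8* can form 6 each, so the number of pairs did not separate them. Both introns of *ade2* (adenylosuccinate synthetase), of *rpb5* (a subunit shared by RNA polymerases) and of *srp1* (an SR protein) stayed positive. All of these fell, with changes from -3.12 (*rpb5*-II) to -1.09 (*rpb5*-I). For *res2* the only junction in the table held 3 reads at 60 min and 6 in untreated cells and was not kept. *prp1* was not analysed here.

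*srp2*, whose SR protein is a substrate of Prp4, had 9 kept introns, all with a positive RSEI at 60 min. They fell by 0.26 (intron VII) to 3.91 (intron IV). Intron IV, whose 5’ SS can form 4 pairs, had 1057 split and 61 unsplit reads at 60 min, against 1536 and 5 in untreated cells. The number of pairs did not order the falls in this gene. Intron V, with 8 pairs, fell by 3.47 and intron IX, with 6, by 3.81, while intron VII also has 8. Intron III had 1014 split and 3 unsplit reads at 60 min, against 1383 and 1. The highest unspliced share in this gene was 17.7% (15.3 to 20.4) in intron VI, against 7.11% (5.71 to 8.72).

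Features of the sequence were set beside the sign at 60 min in the 4236 introns that were positive in untreated cells and matched an annotated intron, of which 1034 (24.4%) were negative. Introns are not replicates of a condition, and those of 1 gene share their RNA. The 9 bases from -3 to +6 of the 5’ SS were compared with CAG/GUAAGU, the letters taken as pairing with U1. Only matches to these letters were counted, although the paper describes wobble pairs of other letters with U1. Of introns with 4 such bases, 67.7% were negative at 60 min (57.3 to 77.1, n = 93). The percentage was 38.5% with 5 (n = 853), 23.95% with 6 (n = 1741), 15.9% with 7 (n = 1188) and 9.76% with 8 (6.77 to 13.5, n = 328). Of the 30 introns with all 9, 3 were negative. The median change of RSEI ran in the same order, with -3.80 at 4 bases, -2.79 at 5, -2.15 at 6, -1.70 at 7, -1.22 at 8 and -0.29 at 9.

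**Figure D3:**
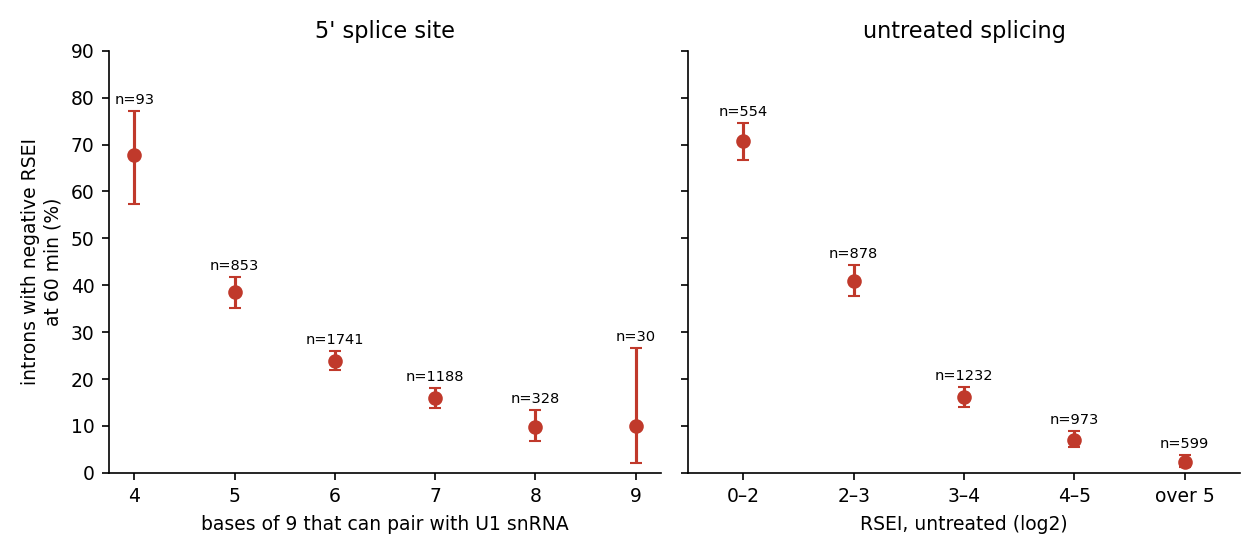
Percentage of introns with a negative RSEI at 60 min (vertical), by the number of bases of the 5’ SS that can pair with U1 snRNA (left) and by RSEI in untreated cells (right), among 4236 introns positive in untreated cells; bars are exact 95% intervals and n is the number of introns. Classes with under 20 introns are left out on the left; the percentage was 67.7% with 4 bases and 9.76% with 8.

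Single positions differed in the size of the step. A G at position +5 was present in 89.3% of these introns, and 22.4% (21.1 to 23.8) of them were negative at 60 min, against 41.3% (36.7 to 45.97) of the 453 introns with another base. At -1, the last base of the exon, 19.01% (17.5 to 20.6) of the 2430 introns with G were negative, against 31.7% (29.5 to 33.9) of the other 1806. At +6, the values were 21.1% with U (n = 2811) and 30.9% with another base (n = 1425). At +3, 24.04% were negative with A and 29.8% (24.4 to 35.6) with another base (n = 272). At -2 and +4 the steps were smaller, with 22.1% at either position where the base was A, and 26.5 and 26.7% with another base. At -3 the percentages with C and with another base, 23.9 and 24.5%, had overlapping intervals. Among whole hexamers from +1, 17.0% of 1190 introns with GUAAGU were negative at 60 min, 20.3% of 891 with GUAUGU and 30.1% of 219 with GUAUGA.

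The branch motif was searched as C or U, U, any base, A, C or U on the transcribed strand within the last 40 nt, and the match nearest the 3’ end was taken. A match was found in 4199 introns (99.1%). The match taken need not be the branch sequence in use. In *res1*-I it was UUCAU, whereas the paper gives CUAAC for this intron. Altogether 418 introns, among them *rps502*-I and *res1*-I, held CUAAC further upstream in the same window. Of the 1924 introns with CUAAC anywhere in it, 20.4% (18.6 to 22.3) were negative at 60 min, against 27.7% (25.9 to 29.6) of the 2312 without, a count chosen after the data were seen. By the match taken, with CUAAC 20.5% (18.5 to 22.6) of 1506 introns were negative at 60 min, with CUAAU 26.1% of 827, with UUAAC 25.8% of 585 and with CUUAU 34.0% of 100. In the 57 introns with UUGAC, a sequence singled out for its value, 29 were negative (50.9%, 37.3 to 64.4). Introns that end in UAG were negative in 22.4% (20.9 to 23.96, n = 2937), those that end in CAG in 26.6% (n = 782) and those that end in AAG in 32.7% (28.6 to 36.9, n = 511). The median change of RSEI was -2.04, -2.11 and -2.46 in that order. These classes also differed in median untreated RSEI, with 3.61, 3.50 and 3.34 by ending, and 3.64 with CUAAC, against 3.08 with UUGAC. The part of the untreated level in the differences by branch match and ending was not tested.

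Both sets of introns had a median length of 56 nt, with quartiles of 46 and 91 nt in those that were negative at 60 min and 46 and 87 nt in those still positive. Single introns were negative in 23.5% of cases, first introns in 24.95%, internal ones in 25.4% and last ones in 23.5%, with overlapping intervals. Of the 72 introns in 5’ UTRs, 29 were negative (40.3%, 28.9 to 52.5), against 24.04% (22.8 to 25.4) of the 4155 between coding exons. Of the coding introns, 3606 hold a stop codon in the reading frame within the intron, and 24.5% of these were negative at 60 min. Of the 549 without such a stop, 21.3% were negative, with overlapping intervals. Only 124 of these have a length that is a multiple of 3, and 21.8% (14.9 to 30.1) of the 124 were negative. The others would shift the reading frame if they stayed in the RNA, and stop codons beyond the intron were not searched.

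Splicing before the analogue differed between the same introns. Of those with an untreated RSEI up to 2, 70.8% were negative at 60 min (n = 554), of those above 2 and up to 3 41.0% (n = 878), and of those above 5 2.34% (n = 599). The median change was similar over these groups, -2.33, -2.14 and -2.32. The order by U1 pairing held within bands of the untreated RSEI. Between 3 and 4, 27.9% (22.5 to 33.7) of introns with up to 5 pairs were negative at 60 min, 16.8% (13.6 to 20.3) of those with 6 and 8.75% (6.33 to 11.7) of those with 7 or more. Above 4 the percentages were 15.6, 3.44 and 2.48%. The percentage also moved with depth, at 35.5% in introns with 11 to 25 untreated reads and 11.95% in those with more than 200, and the part of depth in these comparisons was not tested. The median change of RSEI was -1.907 and -2.005 in these 2 groups.

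Gene groups were taken from 20 lists of gene symbols, checked against RefSeq products. Of all introns, 26.5% were negative at 60 min, against 2.81% in untreated cells, and 50.3% had a higher unspliced share with intervals apart. The counts of negative introns at 60 min include some that were negative before the analogue. In untreated cells, 7 introns of the meiosis list were negative, and 5 each in the replication and RNA polymerase lists. Cytosolic ribosomal protein and V-ATPase genes had 2 each, and proteasome genes 0. How often intervals lie apart depends on depth, which differed between the lists. The percentage of negative introns also moved with depth and with the untreated RSEI, as given above. The part of either in the differences between lists was not tested. The median untreated RSEI was 3.51 over all introns and ran from 3.08 in cell cycle regulators to 4.52 in V-ATPase genes. It was 4.35 in proteasome, 4.45 in cytosolic ribosomal protein and 4.27 in central carbon genes. In replication and repair genes it was 3.17, in genes named for meiosis 3.16 and in the RNA polymerase list 3.32. The median change is to be read against -2.08 over all introns.

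The subunits of the proteasome, which degrades ubiquitinated proteins, had 44 introns kept, of which 1 was negative at 60 min. Their median change was -1.28, and 19 had a higher unspliced share with intervals apart. The 1 negative intron was *rpn9*-I, in a gene of the regulatory particle, with 69 split and 337 unsplit reads at 60 min, against 146 and 41. *pre6*-I, in a gene of the core particle, came close with 184 split and 161 unsplit reads, against 318 and 17. *pup2*-I, whose 5’ SS can form all 9 pairs, had 120 split and 8 unsplit reads, against 133 and 13. Genes of cytosolic ribosomal proteins had 8 of 88 introns negative at 60 min and a median change of -1.56. They were the best-read list, with a median of 1306 untreated junction reads per gene, against 154 over all genes, and 61 introns (69.3%) had intervals apart. Enzymes of central carbon metabolism had 1 of 21 introns negative at 60 min, against 2 in untreated cells, and a median change of -1.29. Among those with at least 50 reads in both libraries, changes ran from -2.50 in *kgd2*-I to 0.67 in *idh2*-III, both of the citric acid cycle.

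Spliceosome, snRNP and SR proteins had 18 of 142 introns negative at 60 min (12.7%), with a median change of -1.86. *cwf21*-I had 37 split and 20 unsplit reads at 60 min, against 71 and 0 in untreated cells, and *lsm5*-II, in a gene of the U6 snRNP, had 244 and 207, against 648 and 21. At the other end *cwf10*-II, in the gene of the GTPase of the U5 snRNP, had 56 split and 1 unsplit read, against 50 and 2. Ribosome biogenesis genes had 12 of 85 introns negative (14.1%, median change -1.66). *rio2*-I (listed as SPBC1703.05) had 36 split and 95 unsplit reads at 60 min, against 506 and 38. V-ATPase genes, whose product acidifies vacuoles, had 5 of 42 negative, with a median change of -1.90, and 61.9% had intervals apart. In this list *vma8*-I had 121 split and 181 unsplit reads, against 354 and 10.

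Genes named for meiosis or sexual differentiation had 33 of 78 introns negative at 60 min (42.3%), with a median change of -2.50 and a median RSEI of 0.25, against 3.16 in untreated cells. They were thinly read, with a median of 57.5 untreated reads per gene. *spo14*-III, in the gene of a GDP/GTP exchange factor, had 21 split and 97 unsplit reads at 60 min, against 57 and 9, while *mug64*-I had 336 and 29, against 430 and 30. DNA replication and repair genes had 44 of 129 introns negative (34.1%), with a median change of -2.08. *ssb2*-I, in the gene of a single-stranded DNA-binding protein, had 17 split and 40 unsplit reads at 60 min, against 61 and 2. *orc3*-I (origin recognition complex) had 67 and 2, against 69 and 5. RNA polymerase, general transcription factor and Mediator genes had 39 of 129 negative (30.2%), with a median change of -1.95, and 43.4% had intervals apart. In *taf73*-I (TFIID) there were 20 split and 95 unsplit reads, against 74 and 6, and in *tfb2*-I (TFIIH) 94 and 1, against 78 and 2.

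Cell cycle regulators had 21 of 75 introns negative at 60 min (28.0%) and a median change of -1.995. Besides *cdc31*-I, *csk1*-II, in the gene of a CDK-activating kinase, had 11 split and 90 unsplit reads, against 82 and 25. *suc1*-II, in the gene of the Cdc2-binding subunit Suc1, had 239 and 30, against 180 and 25. The 5 genes of the G1/S list with a kept intron had 1 each, of which the *res1* intron alone was negative. *cdc22*-I (ribonucleotide reductase) had 62 split and 14 unsplit reads at 60 min, against 219 and 4, and *ctp1*-I (a DNA repair nuclease) had 42 and 24, against 135 and 14. mRNA decay, exosome and poly(A)-binding genes had 16 of 61 negative and a median change of -2.33. Introns II and III of *not3* (CCR4-Not complex) had 15 split and 82 unsplit reads and 26 and 32, against 105 and 13 and 102 and 2 in untreated cells.

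The other lists had 17.9 to 27.03% of introns negative at 60 min, with median changes from -2.12 (chaperone, redox and stress) to -1.81 (vesicle traffic). Vesicle traffic and small GTPase genes had 44 of 246, with *sec15*-IV (exocyst) at 84 split and 67 unsplit reads, against 148 and 2. Ubiquitin, ubiquitin-like and autophagy genes had 32 of 171, with *atg5*-I at 2 and 70, against 49 and 20. Protein kinase genes had 23 of 92, with *ppk3*-V at 16 and 66, against 45 and 7. Cytoskeletal and motor genes had 17 of 82. Within the Arp2/3 complex, which nucleates branched actin, *arp3*-III had 44 split and 130 unsplit reads at 60 min, against 272 and 25, and *arc4*-I had 612 and 16, against 534 and 13. Respiratory chain and ATP synthase genes had 14 of 67 negative, mitochondrial ribosomal protein genes 10 of 37, translation factor and tRNA synthetase genes 11 of 50, and chaperone, redox and stress genes 16 of 67.

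**Figure D4:**
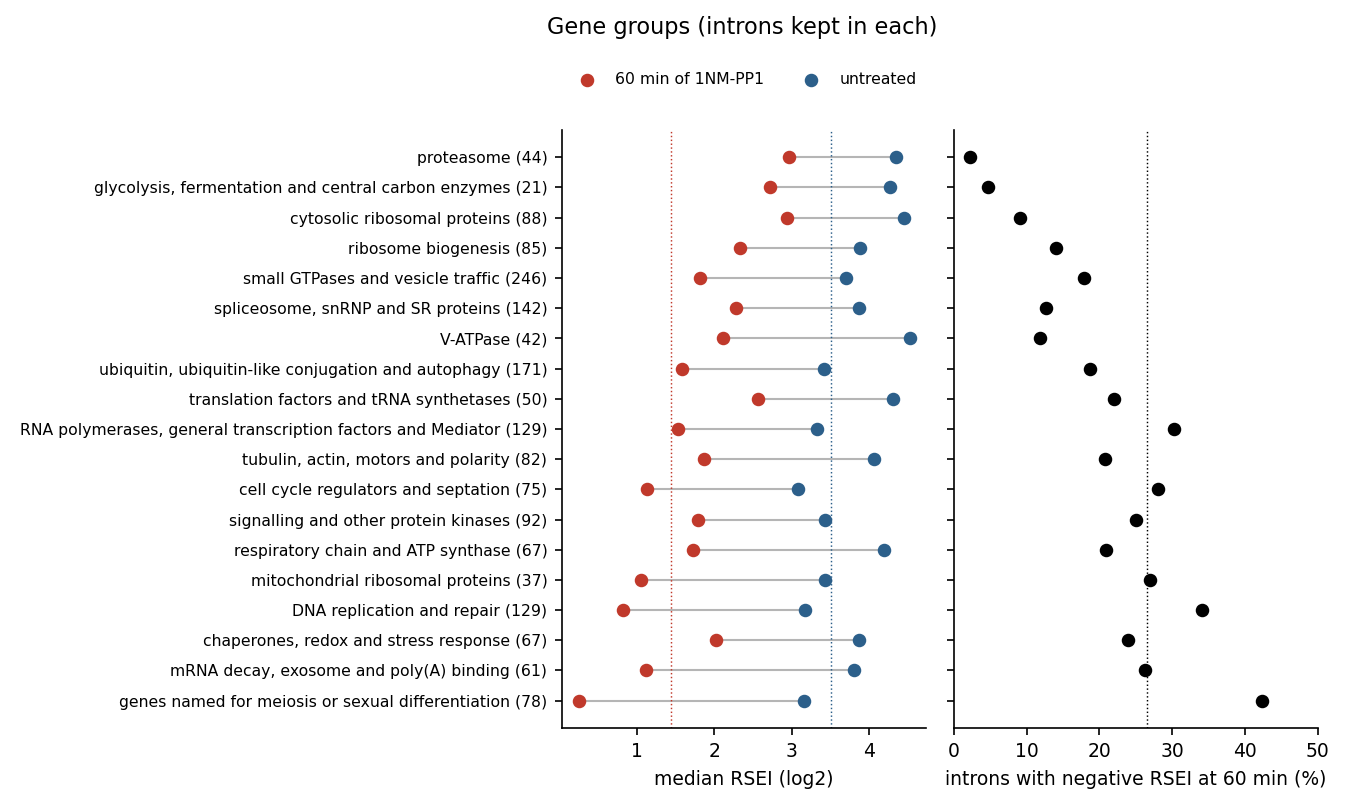
Left, median RSEI (log2) at 60 min (red) and in untreated cells (blue) for the gene groups with at least 20 kept introns, with dotted lines at the medians of all introns; right, the percentage of their introns with a negative RSEI at 60 min, with a dotted line at the 26.5% of all introns. The number of kept introns stands beside each name; the proteasome lay at 2.27% and genes named for meiosis at 42.3%.

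Reads per gene were summed over the kept introns and scaled to all junction reads of the library, so that RNA is counted whether or not it was spliced at that junction. The median gene was at 1.09 of the untreated level at 60 min (quartiles 0.837 and 1.37), or 0.13 on the log2 scale. Scaling to that median shifted all genes by -0.13 on the log2 scale. A gene was called when its reads differed at least 2-fold and the exact interval of the ratio did not hold 1. By this rule 94 genes were higher at 60 min (4.27%) and 123 lower (5.59%). With scaling to the median gene the counts were 69 and 166, so the balance between the directions depends on the scaling. At 30 min the ratio lay on the same side of 1 in 92 of the 94 genes and in 121 of the 123, in a comparison that shares the untreated library.

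Split reads alone, the spliced RNA, were at least 2-fold lower in 473 genes (21.5%) and at least 2-fold higher in 22 (1.00%). Of the 473, 122 were also called lower for all junction reads, and in 231 all junction reads were within 1.5-fold of the untreated level. Relative to library totals, spliced RNA was thus lower in many genes whose junction reads as a whole were near the untreated level. A change shared by all genes would not show at this scaling. *tbp1* is an example, with 865 split and 1234 unsplit reads at 60 min, against 2540 and 310 in untreated cells. Its split reads were at 0.417 of the untreated level and all its junction reads at 0.902 (0.852 to 0.955). At 30 min its junction reads were at 0.229. *res1* had 1.47-fold (1.21 to 1.78) more junction reads at 60 min, and its split reads were at 0.528.

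The 94 genes that were higher divide by what rose. In 20 of them split reads were called higher too, in 43 split reads were at or above the untreated level without being called, and in 31 they were below it. More unsplit than split reads at 60 min were found in 61 of the 94 (64.9%), against 24.7% of all genes. *gpd3*, which encodes a glyceraldehyde 3-phosphate dehydrogenase of glycolysis, had the largest ratio and was almost fully spliced, with 366 split and 25 unsplit reads at 60 min, against 19 and 0 in untreated cells, 25.2-fold (15.9 to 42.3). *wos2*, the gene of a p23 cochaperone of Hsp90, had 2375 split and 269 unsplit reads, against 1069 and 67, 2.85-fold (2.66 to 3.06). *ppp1*, which encodes a pescadillo-family ribosome biogenesis protein, had 141 split and 200 unsplit reads, against 65 and 19, 4.97-fold (3.90 to 6.39), and *ubc6* (a ubiquitin-conjugating enzyme) had 346 and 79, against 176 and 39, 2.42-fold (2.05 to 2.87). In these 4 genes split reads were called higher.

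In other genes of this set the gain was nearly all unspliced RNA. *orc6*, a subunit of the origin recognition complex, had 26 split and 117 unsplit reads at 60 min, against 19 and 11 in untreated cells, 5.84-fold (3.92 to 8.97). SPCC1259.02c, which encodes a metallopeptidase, had 50 split and 248 unsplit reads, against 50 and 20. *rpc10* (a small subunit of RNA polymerases) had 67 and 226, against 77 and 30, 3.35-fold (2.68 to 4.22). *rpn9* was 2.66-fold higher (2.23 to 3.18), with split reads at 0.579 of the untreated level. *mrpl8* and *mrpl44*, of the large mitochondrial ribosomal subunit, were 2.22-fold and 2.08-fold higher, with split reads at 0.597 and 0.420. *spb4* (listed as SPBC24C6.02, an RNA helicase of ribosome biogenesis), *new13* and SPCC736.07c (a prefoldin-like protein) complete the 10 largest ratios (4.17 to 4.90) together with 3 genes whose reads came from junctions without an annotated intron. Those 3 were SPBPB21E7.08 (10.1-fold), *fta3* and *plb3* (listed as SPAC1A6.03c, 4.61-fold). In *fta3*, a kinetochore gene, the junction with an annotated intron held 2 split and 36 unsplit reads at 60 min, against 14 and 8 in untreated cells.

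Among the 123 genes that were lower, 43 (34.96%) had more unsplit than split reads at 60 min. *rpl1603*, a paralogue among the genes of a large subunit protein, had 18 split and 11 unsplit reads, against 313 and 17, 0.108 of the untreated level (0.0710 to 0.157). Reads were kept only where they mapped uniquely, and such near-identical copies are uncertain. *erg5*, which encodes the C-22 sterol desaturase of ergosterol synthesis, had 30 split and 115 unsplit reads at 60 min, against 982 and 125. Its unsplit reads were close in number while its split reads had nearly gone, and the sum was at 0.160 (0.134 to 0.191). *ppk13*, a protein kinase gene, stayed fully spliced, with 12 split and 0 unsplit reads, against 133 and 1, at 0.110 (0.0553 to 0.198). *atx1* (a copper chaperone) had 17 split and 37 unsplit reads, against 198 and 31, at 0.289 of the untreated level. The 10 largest falls also held SPBC725.10 (a TspO-like protein), *hpz1* (listed as SPBC2A9.07c), SPBC409.13 (lumazine synthase), SPAC16C9.01c (a carbohydrate kinase), *klp8* (a kinesin) and *dip1* (endocytosis), at 0.16 to 0.29. The ratio of SPBC725.10 rests on its first intron alone. Its second junction, with 1 read at 60 min against 70, lay outside the read minimum, which leaves out such strong falls.

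**Figure D5:**
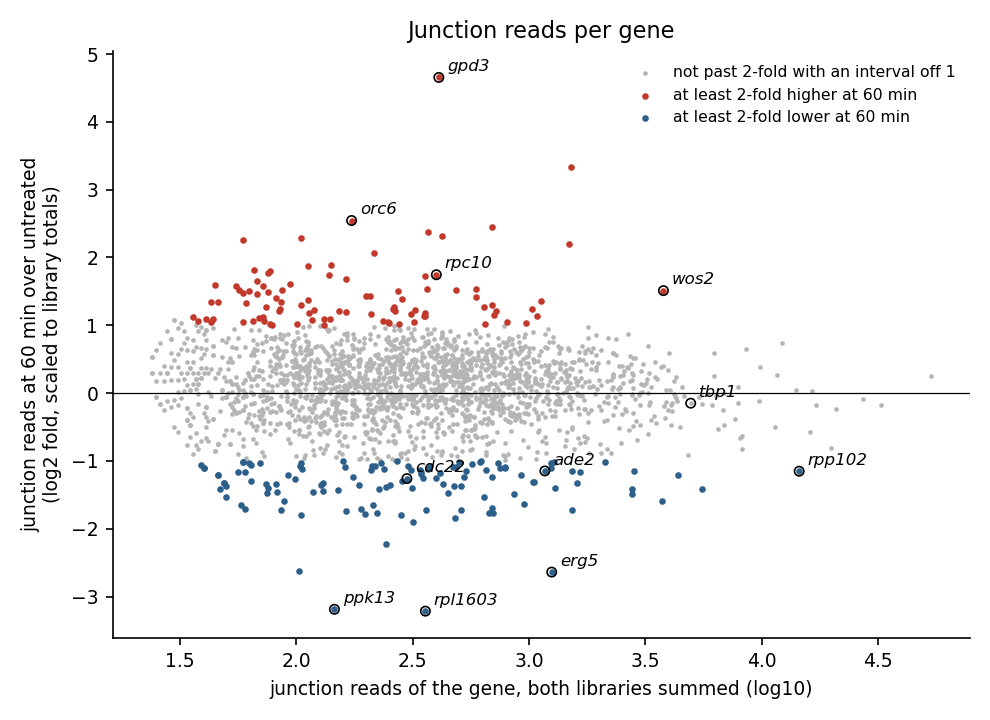
Ratio of junction reads per gene at 60 min over untreated (vertical, log2, scaled to library totals) against the gene's reads in both libraries summed (horizontal, log10), 1 point per gene with 2200 genes. Red points are the 94 genes called higher and blue points the 123 called lower; *gpd3* stood apart at 25.2-fold, and *tbp1* lay near 0.

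By gene group, against 4.27% called higher and 5.59% called lower over all genes, proteasome genes had a median ratio of 1.35, with 1 of 24 called higher (*rpn9*) and 0 lower. Of the 24, 20 (83.3%) were above 1, against 57.8% of all genes. Ribosome biogenesis genes had a median of 1.36, with 5 of 55 higher and 1 lower (*rio2*, at 0.295). Among the genes taken into this list with at least 50 reads in both libraries, *tsr2* (listed as SPBC409.15, rRNA processing) had the largest ratio, 2.90-fold (2.43 to 3.49). SPAC10F6.10 followed at 2.41-fold. Cytosolic ribosomal protein genes had a median ratio of 0.884, with 1 of 75 higher and 4 lower. *rpp102*, of the ribosomal stalk, had 3244 split and 644 unsplit reads at 60 min, against 10054 and 528 in untreated cells, at 0.450 (0.434 to 0.467). *rps1702* had 101 and 301, against 192 and 52, 2.02-fold. Of the 5 G1/S genes, 2 were called lower, and the list's median ratio was 0.540. *cdc22* was at 0.417 (0.317 to 0.544), *ssb1* (replication protein A) at 0.540 and *ctp1* at 0.542, while *res1* was above 1. The direction of the medians named here was the same with scaling to the median gene.

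Named members of the other lists show both kinds of change. *rpb9* (RNA polymerase II) had 348 split and 327 unsplit reads at 60 min, against 281 and 70 in untreated cells, 2.36-fold, and *rpb3* had 64 and 41, against 252 and 19, at 0.474. *bet1*, the gene of a SNARE protein, had 289 split and 15 unsplit reads, against 936 and 49, at 0.378 (0.331 to 0.430), and stayed spliced. *lsm1*, of the mRNA decapping complex, had 244 and 123, against 867 and 44, at 0.493. *cut23* (anaphase-promoting complex) had 13 and 44, against 142 and 11, at 0.456. *cyt1* (cytochrome c1) and *vma7* (V-ATPase) were at 0.456 each. The prefoldin gene *pfd6* (listed as SPAC3A11.13) had 55 split and 123 unsplit reads, against 479 and 34, at 0.425. *ade2* had 247 and 68, against 812 and 43, at 0.451.

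Genes were finally grouped by their unspliced share at 60 min, to set the splicing defect beside the change in reads. The median ratio of junction reads was 1.10 in the 335 genes under 10% unspliced, 1.06 in the 507 genes at 30 to 50%, 1.02 in the 355 at 50 to 75% and 1.18 in the 197 at 75% or more. From the group under 10% to that at 75% or more, split reads were at a median of 1.06, 0.993, 0.882, 0.720, 0.484 and 0.282 of the untreated level. Genes called higher made up 0.597% of the first group and 17.3% of the last, and genes called lower 2.39% and 7.61%. The unspliced share and the reads per gene share the unsplit reads at 60 min, so the link to genes called higher is partly built in. The unspliced share also contains the split reads at 60 min, so the order of the split-read medians is built in as well.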

How the data were processed

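RNA was measured in 3 libraries of *prp4-as2* cells, 1 per condition. The labels give total RNA as the molecule, and the authors’ methods describe directional libraries made after poly(A) selection. The authors removed adapters with TagDust, aligned with TopHat v2.0.5 to the Ensembl annotation ASM294 v1.15 and kept uniquely mapped reads; the processing notes also name SAMtools. The deposited counts of split and unsplit reads, taken over 3 bases around each 5’ exon junction, are not normalized. The deposited log2 values (RSEI) equal the ratio with 1 read added to both counts in all 5374 lines, of which 6 repeat a junction and were dropped. From these values shares with exact 95% intervals, changes of RSEI and ratios of reads per gene, scaled to library totals, were computed (Python 3.11.15, scipy 1.17.1) and checked on simulated data. Intron ends and sequences came from RefSeq ASM294v3, a later build than the authors’, by matching 5’ SS. Introns and genes named are those of the study's experiments, the extremes of RSEI and of reads among those with at least 50 reads (genes: among those called), the extremes of each gene list, and the best-read introns; *cds1*, the genes with the widest span, *ubc6* and UUGAC were chosen after their values were seen. Members and lists were chosen with earlier results of these data known. Alternatives changed the read minimum, pseudocount, size, interval, scaling and gene summary.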

Additional observations from a re-analysis of the deposited data

Results flagged for a closer look

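At 2 junctions outside the read minimum, 10 or fewer reads were found in untreated cells and at least 50 at 60 min. The junction of SPAC977.18, an uncharacterized protein, held 129 reads at 60 min, 124 of them split, against 3 reads in untreated cells, all split. The fourth junction of *cnd3*, which encodes a condensin subunit, held 78 reads at 60 min, 48 of them split, against 6 reads, 5 of them split. These reads enter none of the comparisons above.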

How the results depend on the processing

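No paired analysis was possible because each condition had 1 library. With more than 50 reads in both libraries, 1888 introns had an RSEI lower by at least 1 and 479 a negative RSEI at 60 min (19.3%), with a median change of -2.01; without the added read the median change was -2.29. Introns with an RSEI higher by at least 1 numbered 39 with more than 20 reads, 11 with more than 50 reads, and 5 with a size of 2. At 1.5-fold, 343 genes were higher and 255 lower for all junction reads, and 100 higher and 727 lower for split reads. At 4-fold the counts were 10 and 5, and 5 and 148. With more than 50 reads per gene over all junctions, 45 genes were higher and 76 lower, and 12 were higher for split reads. The unspliced share of all junction reads was 22.6% at 60 min and 6.82% in untreated cells over the kept introns, and 25.8% and 7.64% without ribosomal protein genes. The causes of these shifts were not tested, apart from fewer introns, genes or reads where the setting itself removes them. Scaling to reads outside ribosomal protein genes gave 81 genes higher and 137 lower. Restriction to junctions with an annotated intron, chosen after seeing the data, gave 1129 negative introns and 90 and 123 genes. The ratio of junction reads of *srp2* (1.02, not called) was 0.937 with scaling to the median gene and 0.984 with scaling to reads outside ribosomal protein genes, and that of *rpl29* (1.06, not called) was 0.974 with scaling to the median gene. The balance of genes called higher and lower turned at 1.5-fold and at 4-fold. Depth limits single introns, since in the thinnest ones a few reads decide the sign, and PCR reads without molecular identifiers are not independent molecules.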

Other observations

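At 10 junctions the reverse held, with at least 50 reads in untreated cells and 10 or fewer at 60 min, so that these are not among the introns compared. The largest was in *sod2*, a sodium/proton antiporter gene, with 10 reads at 60 min (6 split), against 150 (142 split). The second junction of SPBC725.10, a TspO-like protein, had 1 read at 60 min, against 70, all of them split. *mfm2*, the gene of a precursor of the M-factor mating pheromone, had 8 reads at 60 min, of which 6 were unsplit, against 86, of which 46 were unsplit. Junctions II and III of *pud1* (listed as SPAC4C5.01, a pseudouridine-5’-phosphatase) had 10 and 8 reads at 60 min, against 68 and 56.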
